A study of Mus musculus with 13 samples.

Results

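The genes described here are the core circadian clock genes of the mouse, as measured in liver RNA. They were chosen by symbol: Arntl, Clock, Npas2, Cry1, Nfil3, Nr1d1, Nr1d2, Per1, Per2 and Dbp. Of these 10 genes, 9 had a row among the 11779 genes of the deposited liver table, and Npas2 did not. RNA had been sequenced from livers of Balb/c mice on day 5 after injection of antisense oligonucleotides (ASOs), short synthetic strands that bind a target RNA. The Liver LL35 ASO group held 3 mice given a mix of ASOs against LL35 (Falcor), a long non-coding RNA of hepatocytes. The labels and the study's main text give 5 ASOs in the mix, but its own list of ASOs for mice names fewer. The Liver Luc ASO group held 3 control mice given an ASO against firefly luciferase, a gene mice lack. The ASOs of both groups carried GalNAc, a sugar taken up by hepatocytes, while the RNA came from whole liver tissue with all of its cell types. For the LL35 mix the labels give 150 mg/kg of each ASO, whereas the methods of the study describe doses as totals of the mix. The age of the mice and the hour at which the livers were taken are not given in the sources used here. The 7 AML12 libraries, from a mouse hepatocyte line, were not analysed here.

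The circadian clock is a loop of transcription and repression that runs in nearly every cell and times much of hepatic metabolism. ARNTL (BMAL1) pairs with CLOCK or its paralog NPAS2, binds E-boxes, and switches on the Per, Cry, Nr1d and Dbp genes, whose PER and CRY proteins return to repress the pair. The REV-ERB receptors NR1D1 and NR1D2 repress Arntl, Clock, Npas2, Cry1 and Nfil3 through ROR/REV-ERB elements, while DBP and its competitor NFIL3 (E4BP4) share D-boxes. In mouse liver the transcripts of most of these genes are known to peak at differing hours of the day. A single level thus depends on the hour of collection.

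The level used is the authors' mean normalized count of a gene, a single mean over the compared liver libraries of both groups. It carries no error, because the table holds no value for a single mouse, and no depth per library could be read from it. The difference between LL35 ASO and Luc ASO livers was not analysed here for any gene. The table's own columns on that difference were left unused by choice, and the pooled mean cannot give it. The lowest mean in the table was 15.6 and the median was 235. Because longer transcripts collect more reads, genes were compared after the mean was divided by the kilobases of exon in GENCODE release M21, which gave a median of 51.5 per kilobase over the 11754 genes with an exon length. A level in tissue RNA sums over all cells, so fewer cells of a type and less RNA per cell cannot be told apart.

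The labelled tissue was checked first. All 5 hepatocyte markers were listed, at 15344 to 519843 per kilobase of exon, with Alb (albumin) at the upper end. The 4 Kupffer cell markers lay between 59.9 and 791 per kilobase, the 4 endothelial markers between 41.4 and 248, and the 4 stellate cell markers between 13.8 and 265. Of the cholangiocyte markers, Sox9 was listed at 9.94 per kilobase and Krt19, Krt7 and Epcam had no row. The neutrophil markers S100a8 and S100a9 stood at 33.1 and 35.9 per kilobase. Their mean normalized counts were only 23.0 and 18.8, near the lowest mean of 15.6, and their exons are short. Several of these cell types contain clocks of their own, and their part in the levels of the clock genes was not tested.

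The promoters of these genes were searched for the binding words of the loop. RefSeq (GRCm38.p6) promoter windows, from 250 bases before to 50 bases after each start, were matched by symbol for 9 of the 10 genes, in 13 windows, and not for Per2. The exact E-box word CACGTG, which reads the same on both strands, occurred in windows of 2 genes, Cry1 and Per1, that is in 2 of 13 windows against 7.15% of all 32851 windows. The ROR/REV-ERB word TAGGTCA, searched on both strands, occurred for Arntl and Nfil3, again in 2 of 13 windows, against 2.61% of all windows. The D-box words TTATGTAA and TTACGTAA occurred in none of the 13, against 1.06% of all windows, and the wider TTANGTAA in none against 2.32%. These are matches of letters in a short window, not measured binding, and distal sites lie outside it. The 13 windows ran from 47.0% to 81.7% GC, against a median of 52.7% over all windows. Only a Clock window lay below that median, and the shares were not adjusted for GC.

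The 30 bases around each exact match are printed to show each word in its place. All are written 5′ to 3′ on the strand of the gene, with the matched word in capitals. Negative positions count back from the transcript start, and the coordinates are those of the 30 bases. The Cry1 match begins at -60, at chr10:85185097-85185126 on the minus strand. The Per1 match begins at -166 from the first of its 2 starts in the table, at chr11:69098771-69098800 on the plus strand, in what GENCODE annotates as an intron of a longer Per1 transcript. The Arntl match begins at base 31 from the second start, in an exon, at chr7:113207530-113207559 on the plus strand. The Nfil3 match begins at -12, at chr13:52981033-52981062 on the minus strand, in the first exon by GENCODE, and its word lies on the opposite strand and so reads TGACCTA.
Cry1: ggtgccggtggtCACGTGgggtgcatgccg
Per1: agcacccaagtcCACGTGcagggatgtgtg
Arntl: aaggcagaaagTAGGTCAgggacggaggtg
Nfil3: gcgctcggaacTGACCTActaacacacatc

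With the word CACGTT also allowed for the E-box, Nr1d1 joined with a match that begins at -28, and Cry1 gained a second match, which made 3 of 13 windows against 11.4% of all windows. The matches of Cry1 begin at -79 and -60 in this stretch of 50 bases, from -90 to -41, at chr10:85185095-85185144 on the minus strand, shown because it holds the pair side by side.
Cry1: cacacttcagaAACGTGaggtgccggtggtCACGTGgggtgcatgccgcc
Nr1d1: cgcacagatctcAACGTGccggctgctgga

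The stretch of Nr1d1 lies at chr11:98775388-98775417 on the minus strand, before the gene. With the shorter word AGGTCA, which is contained in TAGGTCA, Clock, Per1 and Nr1d2 joined Arntl and Nfil3, which made 5 of 13 windows against 16.3% of all windows.

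**Figure D1:**
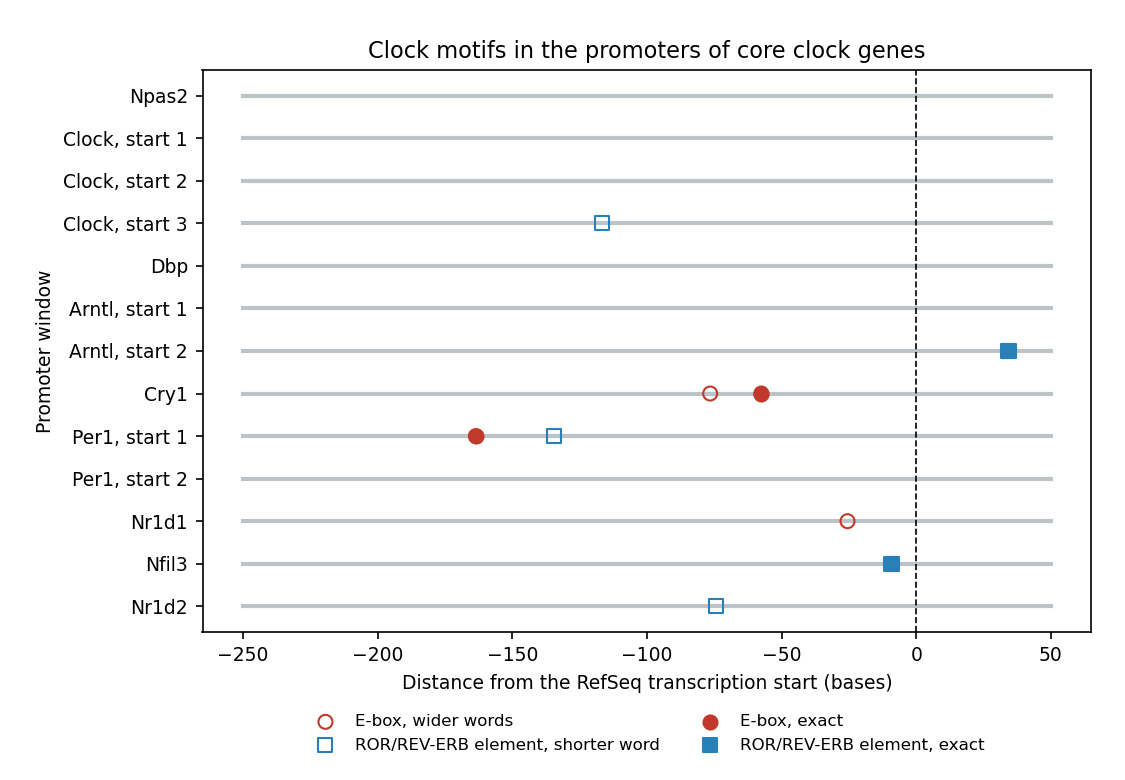
Grey lines are the 13 RefSeq promoter windows of 9 core clock genes, from 250 bases before to 50 bases after the start (dashed). Filled marks are exact words, in Cry1 and Per1 (E-box, circles) and in Arntl and Nfil3 (ROR/REV-ERB element, squares), and open marks are the wider words; no D-box word was found.

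Most of the listed core clock genes stood above the median listed gene of the liver, and the activator Arntl was the lowest of them. Per kilobase of exon, 8 of the 9 listed genes were above that median, and the median of their percentiles was 80.8. With coding length or with no length, 6 of the 9 were above it, and the median percentile was 68.3 or 71.1 in turn. By exon length, the highest was Nr1d2 at 272 per kilobase and the lowest was Arntl at 10.9. These percentiles describe genes that had passed the table's minimum, and a gene with no row could not enter them.

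Among the activators, Clock, which encodes the histone acetyltransferase partner of ARNTL, had a mean normalized count of 939. That was 68.4 per kilobase of exon, the 58.3th percentile of the listed genes. Arntl, whose loss is known to stop the clock, had a mean normalized count of 82.0, or 10.9 per kilobase, at the 13.1th percentile. The level of Clock per kilobase was thus 6.28 times that of Arntl, which stood at 0.212 times the median listed gene. Npas2, which can take the place of Clock, had no row and so no level here.

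The PER and CRY repressors spread over a 3.44-fold range. Per1, whose protein enters the nucleus with CRY to shut the activators off, had a mean normalized count of 1351 and stood at 240.0 per kilobase. Per2, its paralog, had a mean normalized count of 1187, or 203 per kilobase. The level of Per1 was 1.18 times that of Per2, and without a spread between mice it cannot be said whether they differed. Cry1, which holds the activators off late in the cycle, was the low member at a mean normalized count of 233 and 69.8 per kilobase.

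Of the REV-ERB repressors, Nr1d2 (REV-ERBβ) had a mean normalized count of 1473, or 272 per kilobase, and stood at the 87.8th percentile per kilobase. Nr1d1 (REV-ERBα), its paralog, had a mean normalized count of 524, or 170 per kilobase. The level of Nr1d2 was 1.60 times that of Nr1d1 by exon length and 3.00 times by coding length. Nr1d2 was at 5.29 times and Nr1d1 at 3.30 times the median listed gene.

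For the D-box pair, Dbp, a PAR bZIP activator of hepatic output genes, had a mean normalized count of 531, or 177 per kilobase. Nfil3, which competes for the same sites as a repressor, had a mean normalized count of 179, or 88.4 per kilobase. The level of Dbp was 2.01 times that of Nfil3 by exon length, 3.27 times by the longest transcript and 4.21 times by coding length. Within the listed core genes, Per1, Per2, Nr1d1, Nr1d2 and Dbp took the highest 5 levels, between 170 and 272 per kilobase of exon. That order did not hold per kilobase of coding sequence, where Clock at 366 stood above Per1 at 346, Per2 at 315 and Nr1d1 at 284. By exon length, Arntl, Cry1 and Nfil3 lay between 10.9 and 88.4, as did Clock at 68.4. The hour of collection is not given, and its part in this order was not tested.

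**Figure D2:**
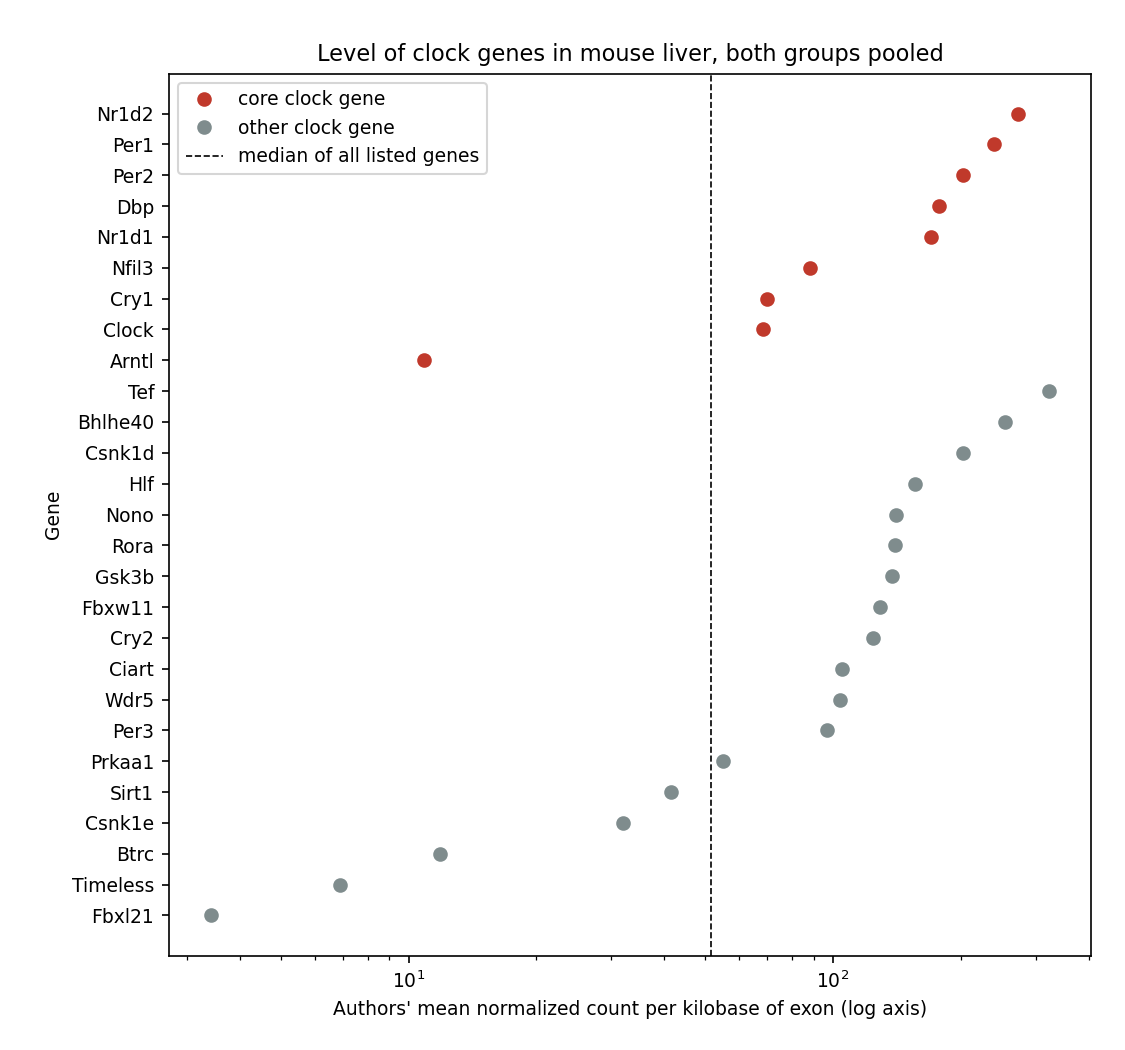
Each point is the authors' mean normalized count per kilobase of exon on a log axis, pooled over both liver groups, with no error bar because no value per mouse is in the table. The 9 core clock genes (red) run from Arntl at 10.9 to Nr1d2 at 272, and 8 of them lie right of the dashed median of all listed genes at 51.5; the 18 other listed clock genes are grey.

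A list of further clock genes was reported only in part. Of the 20 genes kept from it, 18 were listed, and Rorb and Bhlhe41 had no row. Their median was 114 per kilobase, against 170 for the core genes, and 13 of the 18 lay above the median listed gene. Tef, the PAR bZIP paralog of Dbp, had the highest level among those 18 at 323 per kilobase, which was 1.82 times that of Dbp by exon length and 4.64 times by coding length. Hlf, the remaining PAR bZIP gene, stood at 156, which was 0.880 times Dbp by exon length but 2.13 times by coding length.

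Rora, a receptor that competes with the REV-ERBs for their elements as an activator, stood at 140 per kilobase, which was 0.513 times Nr1d2 by exon length but 1.28 times by coding length. Cry2 stood at 124 per kilobase, which was 1.78 times Cry1 by exon length, 2.56 times by the longest transcript and 3.44 times by coding length. Per3 stood at 96.8, which was 0.403 times Per1 by exon length and 0.768 times by coding length. So under each of these lengths, which divide the same means, Cry2 was above Cry1 and Per3 below Per1. Without a spread between mice it cannot be said whether the genes of either pair differed.

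The E-box repressors Bhlhe40 (DEC1) and Ciart (CHRONO) stood at 254 and 105 per kilobase. Of the kinases that mark PER and CRY for decay or act on CLOCK, Csnk1d stood at 203, Gsk3b at 137, Prkaa1 at 55.1 and Csnk1e at 32.0. Among the ubiquitin ligase adaptors that send CRY or PER to the proteasome, Fbxw11 stood at 129, Btrc at 11.9 and Fbxl21 at 3.42. The mean normalized count of Fbxl21 was only 16.4, near the lowest mean of 15.6. The cofactors were Nono at 140, Wdr5 at 104, Sirt1 at 41.4 and Timeless at 6.90 per kilobase.

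All 8 genes of a list of known clock outputs in liver were listed, and all 8 lay above the median listed gene, with a median of 512 per kilobase. The highest were Por, the electron donor of cytochromes P450, at 3705 and Alas1, the first enzyme of heme synthesis, at 2396. Cyp7a1, the rate-limiting enzyme of bile acid synthesis, stood at 757 and Gys2, liver glycogen synthase, at 1069. Nampt, an enzyme of NAD synthesis, was at 267, Usp2, a deubiquitinase, at 249, Tspan4 at 208 and Wee1, a cell cycle kinase, at 92.6. The core clock genes reached 272 per kilobase at most, below the median of these outputs.

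The place of a gene in this order depended on the length by which its count was divided. Clock has 13727 exon bases, of which 2565 are coding, and Nfil3 has 2026, of which 1386 are coding. Per kilobase of coding sequence, Clock moved from the eighth place to the third among the core genes, at 366, and Dbp stood second at 544. Nr1d2 kept the first place and Arntl the last under all exon bases, the longest transcript and the coding bases.

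**Figure D3:**
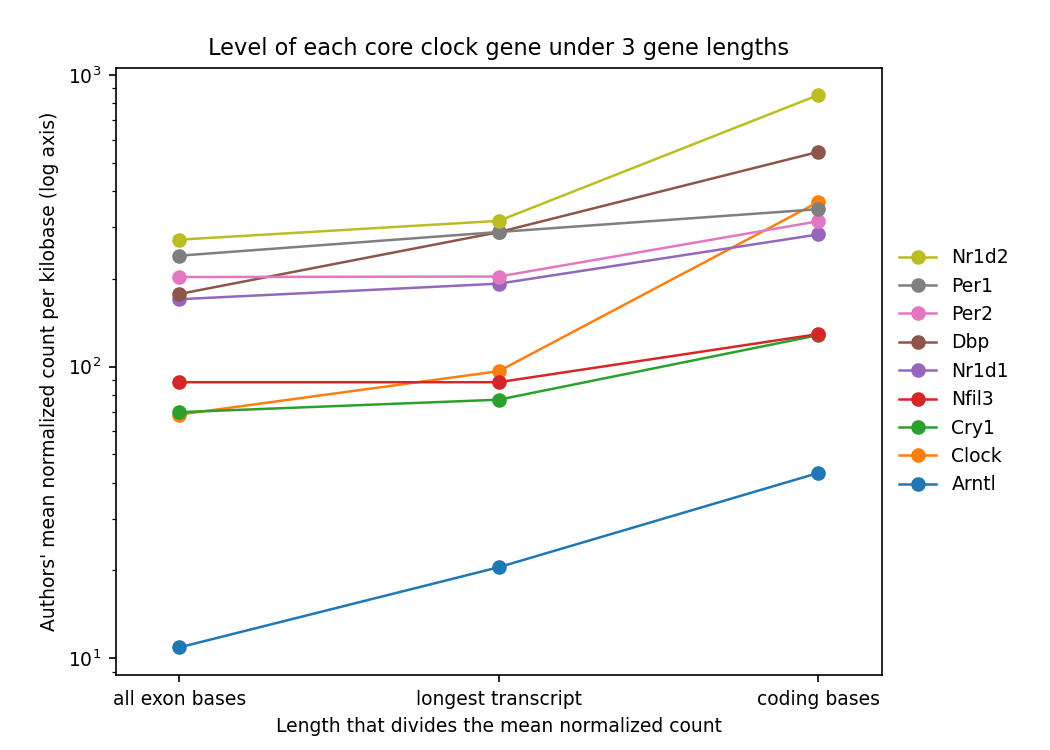
The authors' mean normalized count of each core clock gene is divided by all exon bases, by the longest transcript or by the coding bases (horizontal), and drawn per kilobase on a log axis. Nr1d2 is the top line and Arntl the bottom line under each length, while the line of Clock climbs from 68.4 to 366 and crosses 5 others.

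Reads that cannot be assigned to a single gene also bear on these levels. In GENCODE M21 (GRCm38), Dbp lies on chromosome 7 from 45705088 to 45710203 on the plus strand, and 539 of its 2993 exon bases (18.0%) overlap exons of Sphk2, a sphingosine kinase gene on the opposite strand. Nr1d1 lies on chromosome 11 from 98767932 to 98775333 on the minus strand and shares 263 exon bases (8.55%) with Thra, the thyroid hormone receptor gene that runs against it. The libraries were made with a kit that keeps the strand, but the strand setting of the counting is not given in the sources used here. If no read from the shared bases was counted, division by the unshared exon bases would put Dbp at 216 per kilobase instead of 177. Nr1d1 would then stand at 186 instead of 170. If those reads were all counted to their own gene, 177 and 170 stand. Arntl shares 33 exon bases with the antisense gene Gm45355, which has no row.

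Words of 30 bases shared with transcripts of other genes were also counted. They made up 17.0% of the words of Dbp, all in Sphk2, and 7.88% of those of Nr1d1, all in Thra. The search covered both strands, so these 2 shares largely restate the exon overlaps given above. For Nr1d2 the share was 9.81%, in AC170187.1, a processed pseudogene with no row in the table. It was 0.109% for Clock and 0.105% for Arntl. No such word of Npas2, Cry1, Per1, Per2 or Nfil3 occurs in a transcript of any other gene, on either strand. None was shared between any 2 of the 10 genes, so by this measure the paralogs Per1 and Per2, or Nr1d1 and Nr1d2, are told apart.

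The remaining positions in the same annotation are as follows. Arntl spans 113207465 to 113314126 on chromosome 7 (plus strand), Clock 76209868 to 76304792 on chromosome 5 (minus) and Npas2 39193731 to 39363236 on chromosome 1 (plus). Cry1 spans 85131700 to 85185064 on chromosome 10 (minus), Per1 69095217 to 69109960 on chromosome 11 (plus) and Per2 91415982 to 91459324 on chromosome 1 (minus). Nr1d2 spans 18204054 to 18239127 on chromosome 14 (minus) and Nfil3 52967209 to 52981073 on chromosome 13 (minus). They range from Nfil3 with 2 exon blocks to Clock, Per1 and Per2 with 24. The build to which the authors aligned their reads is not given in the sources used here.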

How the data were processed

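Total RNA from 6 livers was sequenced by the authors, who, per the labels (the submitters' processing notes), used STAR 2.5.3a and DESeq2. The paper's methods add gene counts on an Ensembl annotation, rRNA depletion and RLE normalization. A single column of the deposited table was used, the authors' mean normalized count, a signal averaged over the compared liver libraries of both groups, with no values per mouse. The other 5 numeric columns hold the authors' own comparison of the groups (log2 fold change, its standard error, statistic and 2 p-values) and were left unused by choice. Depth per sample, and the precision it gives, are unknown, and no test was run.

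Exon, longest transcript and coding lengths came from GENCODE M21, matched by Ensembl identifier for 11754 of 11779 genes. Words were searched on both strands of RefSeq promoter windows, a step tested on simulated sequences. Words of 30 bases were compared across GENCODE transcripts. The clock genes, the further lists and the marker genes were chosen with earlier results of these data known, and by the naming rule the genes of the clock lists are named, with marker genes in ranges. Some genes of the further clock list are not reported here, so its counts, median and order cover only the genes kept. Python 3.11.15, numpy 2.4.6, pandas 2.3.3 and matplotlib 3.10.9 were used.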

Additional observations from a re-analysis of the deposited data

How the results depend on the processing

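Since the table holds a single mean per gene and no value per mouse, no mouse could be left out, no paired analysis was possible, and every level lacks an error. The lengths other than that of all exons, and the use of no length, were chosen after the data were examined. The count of core clock genes above the median listed gene was 8 with exon length, with the longest transcript and among genes with a mean of at least 50, and 6 with coding length or no length. The median percentile of 80.8 became 77.4 among genes with a mean of at least 50, 77.3 with the longest transcript, 68.3 with coding length and 71.1 with no length. With the longest transcript and with coding length in turn, the ratio of Clock to Arntl was 4.70 and 8.49, of Per1 to Per2 1.42 and 1.10, of Nr1d2 to Nr1d1 1.64 and 3.00, and of Dbp to Nfil3 3.27 and 4.21, each in the direction given by all exon bases. Among the other ratios, those of Hlf to Dbp and Rora to Nr1d2 turned direction with coding length, and those of Cry2 to Cry1, Per3 to Per1 and Tef to Dbp moved by over 1.5 times without turning. The wider words gave 3 genes for the E-box, 0 for the D-box and 5 for the ROR/REV-ERB element. A length from RefSeq proteins and the identity between paralogous proteins were not run.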
